A study of Homo sapiens with 6 samples.

Results

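The 10 genes described here encode the sensors of foreign or misplaced RNA and DNA, and the proteins that carry their signal: DDX58 (RIG-I), IFIH1 (MDA5), DHX58 (LGP2), MAVS, TLR3, EIF2AK2 (PKR), ADAR, IRF3, CGAS and STING1. They were chosen by name, with earlier results of these data known. All 10 were among the 16617 genes of the authors' deposited table, where STING1 is listed under its older symbol TMEM173. RNA sequencing compared T3M4, an established cell line from a human pancreatic ductal adenocarcinoma, in 2 groups. One carried a guide RNA against METTL13 (sgMETTL13, labelled METTL13 knockdown, 3 libraries), and the other carried a control guide RNA (sgControl, labelled WT, 3 libraries). Cells of both groups were grown in the same serum-containing medium with no other agent named. It is unknown here whether each line is a pool or 1 clone and whether the libraries of a group came from separate cultures, since neither is stated in the labels. METTL13 methylates the translation elongation factor eEF1A. The authors' deposited table gives 1 average per group and gene, so the spread between libraries cannot be shown.

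RIG-I and MDA5 are helicases that bind double-stranded RNA in the cytosol and signal through MAVS, an adaptor on mitochondria. LGP2 is their relative without the signalling domains, and TLR3 reads double-stranded RNA in endosomes. MAVS leads to phosphorylation of the transcription factor IRF3, which switches on interferon genes. cGAS makes the messenger cGAMP when it meets DNA in the cytosol, and STING passes that signal from the endoplasmic reticulum to IRF3. PKR stops translation by phosphorylating eIF2 when double-stranded RNA is present, and ADAR edits adenosines in double-stranded RNA, which keeps the cell's own RNA from triggering MDA5 and PKR. Interferon itself is known to raise transcription of DDX58, IFIH1, DHX58, TLR3, EIF2AK2 and one ADAR promoter, through DNA elements called ISREs.

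The METTL13 transcript was lower in the cells that carried its guide. It averaged 5.63 TPM (a level scaled for transcript length and library size) in sgMETTL13 cells and 39.9 TPM in sgControl cells, a log2 ratio (the log2 fold change of sgMETTL13 over sgControl) of -2.78 in the authors' deposited table (adjusted p = 2.5e-127, deposited q-value). Summed over genes, the average estimated reads were 15247500 per library in sgMETTL13 and 15240866 in sgControl. Epithelial markers were abundant in both groups. The 6 ductal and epithelial markers had averages of 49.6 to 2078 TPM in sgMETTL13 and 53.7 to 2107 TPM in sgControl, and 0 of them passed the test. Of the leukocyte, endothelial, fibroblast, acinar and islet markers in the table, CD68, a lysosomal protein gene (44.1 TPM in sgMETTL13 and 40.9 TPM in sgControl), and the collagen gene COL1A1 (14.2 and 14.0 TPM in the same order) were the 2 above 2 TPM. In such bulk libraries, fewer cells with a transcript and less of it per cell cannot be told apart.

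The transcripts of RIG-I, MDA5, PKR and ADAR, which all act on double-stranded RNA, fell in the sgMETTL13 cells, while those of MAVS, IRF3 and the DNA-sensing pair were not called. By the deposited comparison (adjusted p under 0.05), 4 of the 10 genes in the authors' deposited table fell (DDX58, IFIH1, EIF2AK2 and ADAR), 0 rose and 6 were not called. Among all genes listed, 3.8% were called, 1.08% lower and 2.73% higher. With a smooth trend of fold change in transcript GC content and length removed, 2 of the 10 stayed lower (DDX58 and ADAR), beside 1.06% of all genes. The median log2 fold change of the 10 genes was -0.23 in the authors' deposited table, against 0.00 over all genes. All 6 of the sensors and modifiers of double-stranded RNA (DDX58, IFIH1, DHX58, TLR3, EIF2AK2 and ADAR) had negative log2 fold changes there, from -0.67 to -0.22, as did 49.8% of all genes. MAVS, IRF3, CGAS and STING1 lay between -0.01 and 0.17 on the same scale.

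**Figure D1:**
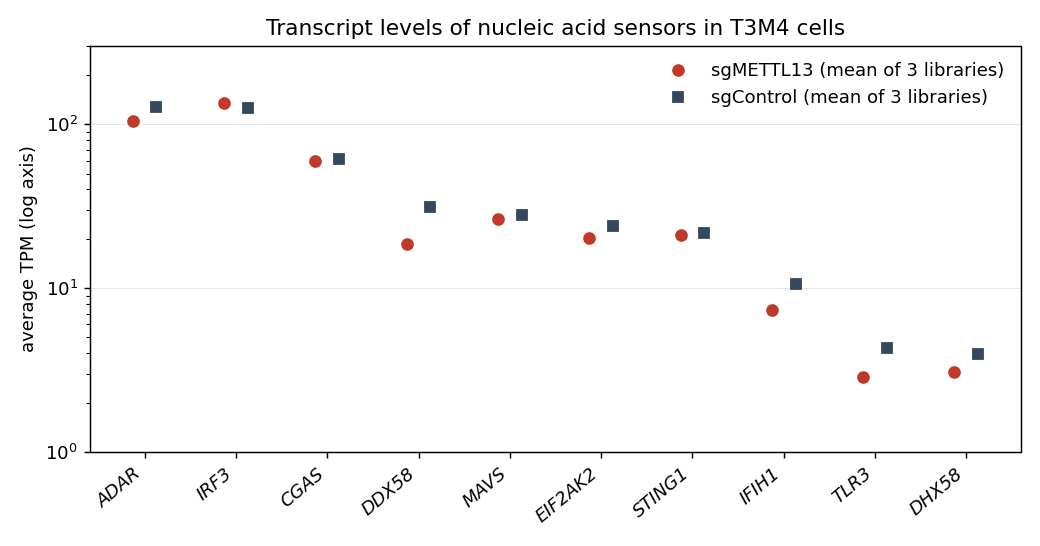
Average TPM of each of the 10 genes (vertical log axis) in sgMETTL13 cells (red circles, left of each pair) and sgControl cells (dark squares), each point the authors' mean of 3 libraries, with genes ordered by their sgControl level. The largest gap within a pair on this axis is that of DDX58, at 18.6 TPM in sgMETTL13 and 31.1 TPM in sgControl, while the points of MAVS, CGAS and STING1 lie close together.

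Per transcript length, the levels of the 10 genes spanned a wide range in these unstimulated cells. IRF3 and ADAR were the most abundant, with 135 and 105 TPM in sgMETTL13 cells and 125 and 128 TPM in sgControl cells. CGAS came next, at 59.7 TPM in sgMETTL13 and 61.5 TPM in sgControl. DHX58 and TLR3 were the least abundant, at 3.07 and 2.88 TPM in sgMETTL13 and 3.95 and 4.34 TPM in sgControl. DDX58 changed its place most. Its level was 7th of the 10 in sgMETTL13 cells, below MAVS, STING1 and EIF2AK2, and 4th in sgControl cells, above all 3. Without values per library, whether neighbours in this order differ beyond the spread of their libraries cannot be said. Summed over the 10 genes, the averages came to 399 TPM in sgMETTL13 and 438 TPM in sgControl.

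Among the calls, the RIG-I-like receptors DDX58 and IFIH1 fell furthest. DDX58, the sensor of RNA ends that carry a triphosphate, lies on the minus strand of chromosome 9 (32455705 to 32526324 in GRCh38, GENCODE 29). It averaged 688 estimated reads in sgMETTL13 and 1134 in sgControl. Its log2 fold change in the authors' deposited table was -0.67 (adjusted p = 5.53e-13), which leaves 62.9% of the control level, and its p-value was the 26th smallest of the 16617. If the test was a normal one, the deposited p-value implies a standard error of 0.083 and a 95% interval from -0.83 to -0.51. That standard error was 1.01 times the median of the 200 genes nearest in read count.

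IFIH1, the sensor of long double-stranded RNA, lies on the minus strand of chromosome 2 (162267079 to 162318703 in GRCh38). It averaged 7.31 TPM (204 estimated reads) in sgMETTL13 cells and 10.5 TPM (289 reads) in sgControl cells. The authors' deposited table gives a log2 ratio of -0.45 (adjusted p = 0.0285, implied 95% interval from -0.72 to -0.19). That call was lost when the GC and length trend was removed, with a log2 ratio of -0.44 and an adjusted p of 0.0512.

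DHX58, on chromosome 17, averaged 59.3 estimated reads in sgMETTL13 and 76.3 in sgControl. Its log2 fold change in the authors' deposited table was -0.31 and did not pass the test (adjusted p = 0.75, implied 95% interval from -0.79 to 0.16). At its implied standard error of 0.242 a measured log2 change of 0.75 was needed for a call. That is more than the fall measured for DDX58, so a measured value of DDX58's size would not have been called for DHX58. Together the 3 RIG-I-like receptors amounted to 28.97 TPM in sgMETTL13 cells and 45.5 TPM in sgControl cells.

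TLR3, on the plus strand of chromosome 4, had a point estimate between those of DDX58 and IFIH1. It averaged 67.3 estimated reads in sgMETTL13 and 100.3 in sgControl, a log2 ratio of -0.52 in the authors' deposited table. With few reads it did not pass the test (unadjusted p = 0.0129, adjusted p = 0.18, both from the deposited comparison), and a log2 change of 0.65 was needed for a call. Its implied 95% interval, from -0.94 to -0.11, contained the values of DDX58, IFIH1, EIF2AK2 and ADAR.

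**Figure D2:**
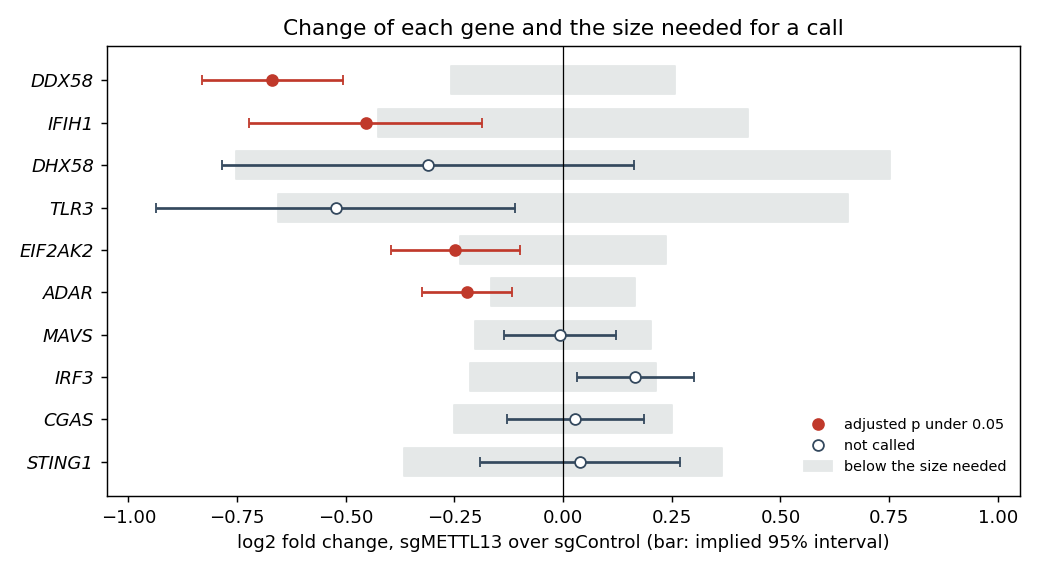
Log2 fold change of each gene (horizontal axis, sgMETTL13 over sgControl; points) with its implied 95% interval (bars), red where the adjusted p of the authors' deposited table was under 0.05 and open where it was not; grey bands show the changes too small to be called at that gene's implied standard error. DDX58 lies far outside its band, IFIH1, EIF2AK2 and ADAR lie outside theirs, and TLR3 and DHX58 lie inside bands that reach 0.65 and 0.75.

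The effector and editing genes of the double-stranded RNA response fell by less than DDX58. EIF2AK2, the kinase PKR, averaged 20.2 TPM in sgMETTL13 and 23.9 TPM in sgControl. Its log2 fold change in the authors' deposited table was -0.25 (adjusted p = 0.033, implied 95% interval from -0.40 to -0.10). The value was -0.18, with an adjusted p of 0.261, once the GC and length trend was removed, which ended the call. ADAR averaged 105 TPM (5368 estimated reads) in sgMETTL13 and 128 TPM (6485 reads) in sgControl. Its log2 ratio of -0.22 in the authors' deposited table (adjusted p = 0.00185) had an implied 95% interval from -0.32 to -0.12, and ADAR stayed called with the trend removed (-0.20). The intervals of EIF2AK2 and ADAR did not reach that of DDX58, but overlapped that of IFIH1. ADAR's change was called at a size below the 0.24 that EIF2AK2 needed, because with the most reads of the 10 it had the smallest implied standard error, 0.053. In the table these genes and MAVS and IRF3 have average counts that are not whole sums over 3 libraries, as arises when a read is split over several genes, so the division adds an uncertainty that the deposited values do not show.

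The promoters of some of these genes hold letters that match the core of the ISRE. Shown are the promoters with a match to a form searched for, those of DDX58, IFIH1, EIF2AK2 and TLR3. Each is 280 bases from RefSeq (GRCh38.p14), from 250 before the annotated start to 30 after it, on the gene's strand. ADAR, also called, had no match and is not printed. Coordinates are chr9:32526167-32526446 (minus strand, DDX58), chr2:162318655-162318934 (minus strand, IFIH1), chr2:37156951-37157230 (minus strand, EIF2AK2) and chr4:186068906-186069185 (plus strand, TLR3). Capitals mark matches on either strand to the ISRE core GAAANNGAAA and, in DDX58, to the form with 1 base between the repeats, GAAANGAAA, which was added to the search after the DDX58 sequence had been read.
DDX58 promoter: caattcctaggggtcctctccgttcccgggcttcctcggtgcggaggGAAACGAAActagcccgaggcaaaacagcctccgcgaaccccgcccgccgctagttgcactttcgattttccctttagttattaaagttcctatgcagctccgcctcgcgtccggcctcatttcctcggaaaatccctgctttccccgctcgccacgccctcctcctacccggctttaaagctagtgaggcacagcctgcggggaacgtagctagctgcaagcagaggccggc
IFIH1 promoter: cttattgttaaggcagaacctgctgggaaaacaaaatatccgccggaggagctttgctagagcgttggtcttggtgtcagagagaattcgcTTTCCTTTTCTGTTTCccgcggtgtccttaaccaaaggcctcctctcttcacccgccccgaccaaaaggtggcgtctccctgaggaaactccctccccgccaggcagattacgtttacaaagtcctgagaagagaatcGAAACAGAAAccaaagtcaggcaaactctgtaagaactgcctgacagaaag
EIF2AK2 promoter: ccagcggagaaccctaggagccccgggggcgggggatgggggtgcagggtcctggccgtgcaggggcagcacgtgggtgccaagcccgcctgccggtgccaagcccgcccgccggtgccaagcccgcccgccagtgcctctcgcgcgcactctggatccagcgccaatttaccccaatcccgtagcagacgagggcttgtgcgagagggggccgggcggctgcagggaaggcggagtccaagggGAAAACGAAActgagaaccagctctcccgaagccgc
TLR3 promoter: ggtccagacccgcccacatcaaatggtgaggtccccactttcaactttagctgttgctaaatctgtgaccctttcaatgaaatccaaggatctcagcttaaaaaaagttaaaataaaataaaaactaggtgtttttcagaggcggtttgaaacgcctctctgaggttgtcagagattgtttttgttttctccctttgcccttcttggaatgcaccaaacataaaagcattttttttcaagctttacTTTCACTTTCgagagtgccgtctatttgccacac

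The ISRE core occurred in 3 of the 6 genes for which the RefSeq table holds a promoter, counted in windows of 300 bases. IFIH1 had 3 matches, 2 of them overlapping (from -159 to -144 relative to the start) and the third from -21 to -12. EIF2AK2 had 1 match, from -6 to 4, and TLR3 had 1, from -4 to 6. The DDX58 match with 1-base spacing ran from -203 to -195. None of the windows of MAVS or ADAR matched either form. Whether the interferon-responsive ADAR promoter is among those windows was not examined. Per window, the core was present in 3.57% of 35116 promoter windows of the same length and the 1-base form in 3.12%. For windows of genes in the deposited table the shares were 3.06% and 2.66%. The 6 genes had 8 windows, so a count of genes and a share of windows are not the same measure. Since the 1-base form was chosen with the DDX58 sequence in view, its share gives the DDX58 match no weight. A match describes the letters only; the files hold no measurement of binding.

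The signalling adaptors downstream of RNA sensing and the DNA-sensing pair showed no called change. MAVS, the adaptor shared by RIG-I and MDA5, averaged 26.5 TPM in sgMETTL13 cells and 28.1 TPM in sgControl cells, for which the authors' deposited table gives a log2 ratio of -0.01 (implied 95% interval from -0.13 to 0.12). CGAS averaged 812 estimated reads in sgMETTL13 and 825 in sgControl, and the authors' deposited table gives a log2 ratio of 0.03 (implied interval from -0.13 to 0.19). STING1 averaged 21.1 TPM in sgMETTL13 and 21.7 TPM in sgControl (0.04 on the log2 scale of the authors' deposited table, with an interval from -0.19 to 0.27). The intervals of these 3 genes exclude a fall as large as that of DDX58 or IFIH1, and none of them reaches the -0.22 of ADAR. Average reads and TPM of CGAS and STING1 were slightly lower in sgMETTL13 although the deposited log2 fold change is slightly positive, since the authors' fold changes equal the log2 ratio of average reads plus 0.052 (SD 0.0007 over abundant genes).

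IRF3, the transcription factor at which both routes meet, had the highest log2 ratio of the 10. It averaged 1499 estimated reads in sgMETTL13 and 1384 in sgControl, a log2 ratio of 0.17 in the authors' deposited table that did not pass the test (unadjusted p = 0.0156, adjusted p = 0.2, both deposited). The implied 95% interval ran from 0.03 to 0.30. With the GC and length trend removed the value was 0.086 (adjusted p = 0.817). IRF3 shares 734 bases with BCL2L12 in GENCODE 29, CGAS shares 4055 with DDX43 and EIF2AK2 shares 35 with GPATCH11 and 775 with the processed pseudogene AC007899.1, all on opposite strands. No source used here says whether counting used strand, so reads from such partners cannot be told apart. BCL2L12, DDX43 and GPATCH11 were not called in the authors' deposited table.

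**Figure D3:**
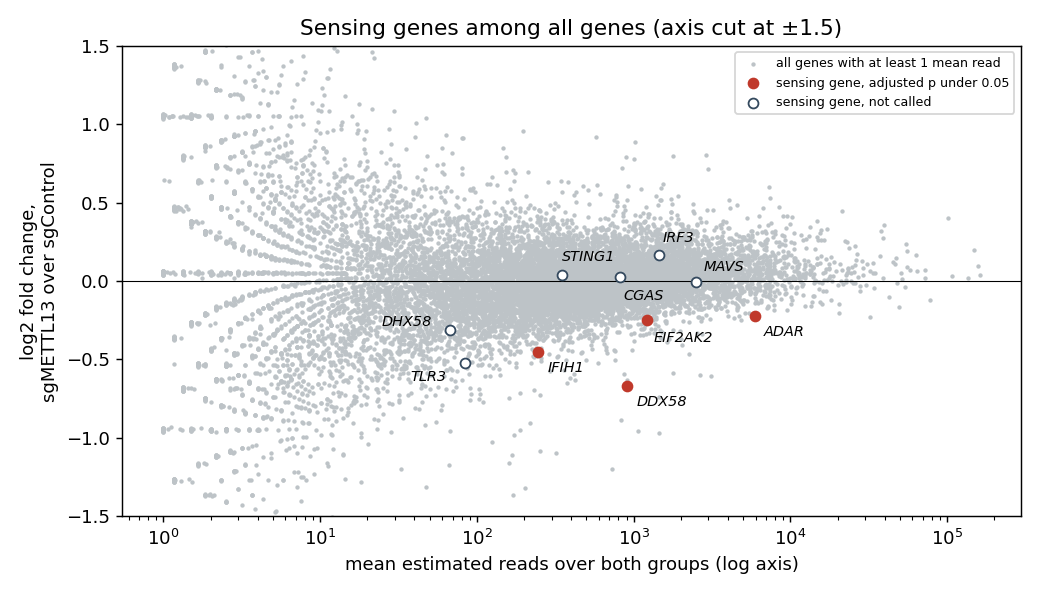
Log2 fold change (vertical axis, cut at 1.5 in each direction) against mean estimated reads (horizontal log axis) for all genes with at least 1 mean read (grey) and the 10 sensing genes (red if the adjusted p of the authors' deposited table was under 0.05, open if not). DDX58, at 911 mean reads, sits below nearly all genes of similar read count, and TLR3 and DHX58, at 83.8 and 67.8 mean reads, sit where the cloud is wider.

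Most genes of the surrounding pathway were not called. Among 118 partner genes in 9 lists (ligases and cofactors, adaptors, kinases, nucleases, other sensors and interferons), 116 were in the authors' deposited table, 7 were called lower and 3 higher. Their median log2 ratio was -0.03 there, near the 0.00 of all genes, and 106 were not called. Over all genes 1.08% were lower and 2.73% higher. Among the more abundant genes of the table (205 mean reads or more), where partner genes mostly lie, 1.83% were lower and 5.21% higher. The 7 of 116 partners called lower were a larger share than in either set. The 3 called higher were near the share of all genes and below that of the more abundant genes. The lists were chosen with earlier results of these data known.

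Of the 13 ligases and cofactors of RIG-I-like receptors 2 fell and 0 rose. DDX60, a helicase reported to aid RIG-I, averaged 6.03 TPM in sgMETTL13 and 9.98 TPM in sgControl, a log2 ratio of -0.65 in the authors' deposited table (adjusted p = 6.4e-07). ZC3HAV1, the antiviral zinc finger protein ZAP, fell by 0.37 on the log2 scale there (adjusted p = 6.89e-05). TRIM25, the ubiquitin ligase best known for acting on RIG-I, had a value of -0.05 in the authors' deposited table and was named after its value was seen. Of 17 adaptors and regulators of MAVS, TRIM14, an adaptor that binds MAVS, fell, with 52.5 TPM in sgMETTL13 and 76.1 TPM in sgControl (log2 ratio -0.47 in the authors' deposited table, adjusted p = 2.96e-06).

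Double-stranded RNA is also cleared by nucleases. In the RNA editing and clearance list 2 of 10 measured genes fell and 0 rose in the authors' deposited table, PNPT1, the mitochondrial polynucleotide phosphorylase (-0.31, adjusted p = 0.0463), and DICER1, the RNase that makes microRNAs (-0.23, adjusted p = 0.0362). Once the GC and length trend was taken out neither was called, at -0.28 for PNPT1 (adjusted p = 0.128) and -0.16 for DICER1 (adjusted p = 0.298). Among 17 partners of cGAS and STING, the dNTP hydrolase SAMHD1 fell by 0.45 on the log2 scale (adjusted p = 9.93e-06), while TOLLIP, an adaptor of Toll-like receptor signalling (0.27, adjusted p = 0.00197), and SURF4 (0.17, adjusted p = 0.0194) rose in the authors' deposited table. SURF4, a cargo receptor of the endoplasmic reticulum, was at 0.12 and not called with the trend removed (adjusted p = 0.214). In a list of 17 other sensors POLR3G, an RNA polymerase III subunit, fell by 0.43 in the authors' deposited table (adjusted p = 0.044), and with the trend removed it was at -0.40 and not called (adjusted p = 0.0916).

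The eIF2 side of PKR moved the other way at 1 gene. PPP1R15A, the phosphatase subunit that undoes eIF2 phosphorylation, averaged 95.7 TPM in sgMETTL13 and 70.5 TPM in sgControl, a log2 ratio of 0.52 in the authors' deposited table (adjusted p = 8.61e-11). The other 10 genes of that list, among them the eIF2 kinases EIF2AK1, EIF2AK3 and EIF2AK4, were not called. The authors' deposited table held 0 calls among 10 endosomal Toll-like receptor genes and 0 among 13 kinases and interferon regulatory factors. At an unadjusted p under 0.05, 797 of all 16617 genes of that table were lower and 1271 higher. By the same measure 1 gene was lower and 1 higher in the first list, and 2 were lower and 1 higher in the second. The most abundant of each, the chaperone HSP90B1 (337 TPM in sgMETTL13 and 362 TPM in sgControl) and IRF7 (102.5 and 112.9 TPM in the same order), had log2 fold changes of -0.03 and -0.08 there.

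**Figure D4:**
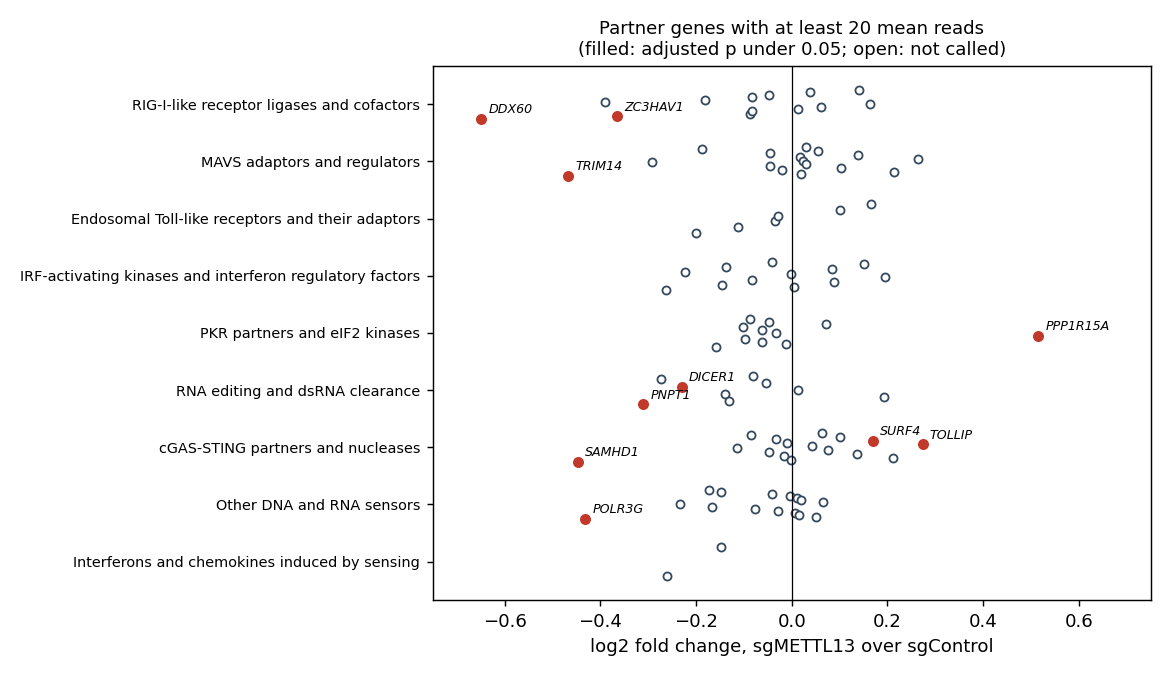
Log2 fold change (horizontal axis, sgMETTL13 over sgControl) of the 100 partner genes with at least 20 mean reads, by list, filled and named where the adjusted p of the authors' deposited table was under 0.05. Named points on the left include DDX60 (-0.65), TRIM14 (-0.47) and SAMHD1 (-0.45), and on the right PPP1R15A (0.52).

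Transcripts of interferons, the products of the pathway, had few reads. The authors' deposited table called 0 of 8 measured interferon and chemokine genes at a median of 2.08 mean reads. At an unadjusted p under 0.05, 1 of the 8 was lower, beside 797 of all 16617 genes. It was CXCL10, an interferon-induced chemokine gene, with 0.667 estimated reads per library in sgMETTL13 and 5.67 in sgControl. The adjusted p of CXCL10 in the authors' deposited table was 0.292. Of the interferon genes in the list, IFNE had the most reads, 19.3 in sgMETTL13 and 24.0 in sgControl. IFNB1, named like CXCL10 and IFNE after its value was seen, averaged 0.667 estimated reads per library in sgMETTL13 and 0.333 in sgControl. With so few reads the implied standard error of the IFNB1 log2 ratio was 2.68, so its change was poorly measured. CCL5, the most abundant of the list, averaged 11.4 TPM in sgMETTL13 and 13.2 TPM in sgControl (log2 ratio -0.15 in the authors' deposited table, adjusted p = 0.929).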

How the data were processed

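TRIzol-extracted RNA of T3M4 cells was sequenced as 3 sgMETTL13 and 3 sgControl libraries, per the labels' protocols; titles gave the groups. The submitters' processing notes name RSEM 1.2.12, HISAT2 2.0.4, Bowtie2 2.2.5, an unversioned DESeq2 and the builds hg38 and GRCh38.p12, with roles and order not given in the sources used here. Per the file headers, the deposited table holds each group's average TPM, FPKM and read count, and the log2 fold change (KD over WT) with p-value and q-value. Read counts were deposited by the authors as averages of estimated counts: for 21.4% of genes they are not whole sums over 3 libraries (tolerance 0.005). Deposited FPKM values were not used. The planned count model per library was not possible with averages, so the deposited comparison is the result, and p-values cover the spread between libraries, which may be technical. A Benjamini-Hochberg adjustment recomputed from the deposited p-value differs from the q-value by at most 1.22%. The implied standard error of a gene is its absolute log2 ratio over the normal quantile that its p-value gives; its median was 0.089 at or above 205 mean reads and 0.574 below. The size needed for a call is 3.11 standard errors, from the largest p called (0.00186). That size holds the standard error fixed, although a different change would come with different reads and another standard error.

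The genes and lists were chosen with earlier results of these data known. Named are all 10 genes and METTL13, each list's called members (at most 4), and the most abundant gene of a list with none. Transcript GC content and length are those of the longest GENCODE 29 transcript, matched by Entrez ID for 97.6% of genes; the trend was fitted with weighted splines (4 degrees of freedom each). The steps were tested on simulated data. Software was Python 3.11.15 with matplotlib 3.10.9, patsy 1.0.2, scipy 1.17.1, pandas 2.3.3 and numpy 2.4.6.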

Additional observations from a re-analysis of the deposited data

How the results depend on the processing

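No paired analysis was possible because the table holds group averages, and for the same reason leaving out a library, a count model and DESeq2 were not run. The count of 4 called sensing genes was 2 at an adjusted p under 0.01 (DDX58 and ADAR), 1 with Bonferroni adjustment (DDX58) and 2 without the GC and length trend (DDX58 and ADAR), an alternative added after the data were seen. Without a call at those stricter thresholds, IFIH1 stayed at -0.45 and EIF2AK2 at -0.25, and ADAR stayed at -0.22 with a Bonferroni adjusted p of 0.487. With the trend removed IFIH1 was at -0.44 and EIF2AK2 at -0.18, and centring alone, also added, left the count at 4. The log2 ratio of average TPM plus 0.1 or plus 1 gave -0.081 and -0.079 for MAVS and -0.29 and -0.29 for ADAR, a ratio that leaves out the authors' scaling between groups, and plus 1 gave -2.63 for METTL13. The 10 called partner genes were 6 at 0.01 and 5 with Bonferroni. Over all genes the 632 calls were 409 and 180 under those thresholds, and the split of 453 higher and 179 lower was 271 and 172 with the trend removed. DDX58 kept its direction and its call under every alternative with a test, with log2 values from -0.74 to -0.63 over the 10 alternatives. Of 98 values of the 10 genes under these settings, 87 kept their side of the threshold or, where the setting has no test, stayed within 1 implied standard error. Part of these 87 could not have changed, since a stricter threshold cannot add a call and a looser one cannot remove it. The share is therefore no measure of robustness. Depth limits DHX58 and TLR3 most, at under 100 mean reads each.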

Other observations

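The ratio of average reads to average TPM follows the transcript length that the authors' estimate assigned to a gene, and it moved little for most of the sensing genes. Relative to the median of abundant genes, the log2 change of this ratio (sgMETTL13 over sgControl) lay between -0.02 and 0.00 for 9 of the 10 genes. For EIF2AK2 it was -0.08, with 53.6 reads per TPM in sgMETTL13 and 55.7 in sgControl, at percentile 1.66 of abundant genes. The averages carry no error per library, so whether that shift exceeds the spread between libraries was not tested.

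UNC93B1, which carries TLR3 and its relatives to endosomes, averaged 68.7 TPM in sgMETTL13 and 82.9 TPM in sgControl. Its log2 ratio of -0.20 in the authors' deposited table was not called (adjusted p = 0.218), and without the GC and length trend it was -0.33 with an adjusted p of 0.00731. It was named after its values were seen.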
